A study of Mus musculus with 2 samples.

Results

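The genes described here are 10 genes of interleukin-6 (IL6) family signalling, taken from the deposited table by gene symbol: the ligand genes Il6, Il11, Lif and Clcf1, the receptor genes Il6ra, Il6st, Lifr and Osmr, the transcription factor gene Stat3 and its feedback inhibitor gene Socs3. All 10 had a row among the 55337 gene symbols of the table. RNA came from the mouse pancreatic cancer line KPC2, with 1 library of wild type cells that received no drug and 1 library of gemcitabine resistant cells exposed over a long period to gemcitabine at 260 ng/mL, a deoxycytidine analogue that is built into DNA. Both were grown in the same serum-containing medium, and the resistant cells were also maintained with the drug. With 1 library per group no test between the conditions could be made, and every difference describes these libraries. Effects of the drug being present and traits that the cells would keep without it cannot be told apart, and the sources used here do not say whether the resistant cells are 1 clone.

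Cytokines of this family signal through a shared receptor chain, gp130, which Il6st encodes. IL6 and IL11 first bind a specific alpha chain (from Il6ra and Il11ra1) and then a pair of gp130 molecules, while LIF and CLCF1 use gp130 together with the LIF receptor, and oncostatin M uses gp130 with OSMR or the LIF receptor. The bound receptors activate JAK kinases, which phosphorylate STAT3, and STAT3 induces Socs3, whose product shuts the receptor off. In pancreatic tumours, IL6 is known mainly as a product of fibroblasts and immune cells, and LIF as a factor that acts on the tumour cells.

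The upstream sequences of 3 genes are shown, chosen by the levels of these genes. Socs3 is the classical STAT3 feedback gene, and its level was nearly the same in both libraries. Lifr and Il6ra are the receptor genes that differed most. The sequences are taken from the RefSeq promoter table on GRCm38.p6, 5′ to 3′. They cover 250 to 21 bases before the start, for Lifr the first of 2 starts in the table. Capitals mark TTCNNNGAA, the core motif that STAT proteins bind, searched for on both strands at once because it is its own reverse complement.
Socs3, chr11:117969387-117969616, minus strand: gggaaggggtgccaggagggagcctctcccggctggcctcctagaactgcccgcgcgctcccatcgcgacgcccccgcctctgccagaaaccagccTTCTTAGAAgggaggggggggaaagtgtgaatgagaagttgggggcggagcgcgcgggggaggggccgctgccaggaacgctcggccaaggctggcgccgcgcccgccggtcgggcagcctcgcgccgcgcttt
Lifr, chr15:7129322-7129551, plus strand: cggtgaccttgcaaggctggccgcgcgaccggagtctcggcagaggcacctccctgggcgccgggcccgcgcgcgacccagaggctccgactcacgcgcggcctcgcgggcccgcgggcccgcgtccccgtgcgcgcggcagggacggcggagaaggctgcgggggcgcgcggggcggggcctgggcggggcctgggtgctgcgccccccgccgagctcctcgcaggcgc
Il6ra, chr3:89913217-89913446, minus strand: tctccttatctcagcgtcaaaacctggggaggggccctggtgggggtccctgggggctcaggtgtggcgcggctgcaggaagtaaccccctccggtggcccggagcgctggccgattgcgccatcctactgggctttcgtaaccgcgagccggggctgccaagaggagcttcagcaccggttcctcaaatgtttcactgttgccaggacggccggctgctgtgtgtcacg
The Socs3 window held the motif once, as TTCTTAGAA, starting 154 bases before the start. Of the 9 genes matched in that table, with 11 windows, no other held these letters in its window, and 6.48% of all 32851 windows of this length did. The Lifr window shown held 39 CG dinucleotides, that of Socs3 25 and that of Il6ra 16, beside a median of 5 over all windows. The window at the other Lifr start in the table held 2. The Lifr and Socs3 windows lie inside the gene spans given below, and which starts these cells use was not tested.

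The deposited values were read as FPKM, fragment counts scaled to transcript length and sequencing depth. Low values fell on whole-fragment steps, and for a transcript with 1 kb of usable length 1 fragment was worth 0.0417 FPKM in wild type cells and 0.0431 FPKM in resistant cells. The 95% intervals below are exact Poisson intervals from these steps and cover counting error only, not the spread between cultures. They were computed on the shortest coding transcript of at least 1000 bases, so they are wide for genes whose longer transcripts are used. Epithelial keratin genes were high, with Krt8 at 1176 and 1722 FPKM, Krt18 at 1123 and 1864 and Krt19 at 1332 and 1738 in wild type and resistant cells, and the E-cadherin gene Cdh1 stood at 206 and 164 FPKM. The epithelial genes Epcam (0.211 and 0.103 FPKM) and Cldn4 (listed at 0, and 0.0520) were at or near 0. All 10 fibroblast markers were under 1 FPKM, with a summed level of 0.452 and 0.763 FPKM. Of 5 endothelial markers, 1 was at 1 FPKM or more, Egfl7 (7.48 and 10.2 FPKM). Pecam1, Cdh5, Kdr and Tie1 were at or near 0 in both libraries. Of 8 leukocyte markers, 2 were at 1 FPKM or more, Cd68 (1.17 and 5.48) and Lyz2 (0.361 and 1.53), and the list summed to 1.63 FPKM in wild type and 7.27 in resistant cells. The pan-leukocyte gene Ptprc was listed at 0 in wild type cells and reached 0.232 FPKM in resistant cells, and Cd3e and Cd79a were listed at 0 in both. The other leukocyte markers were near 0, too low for a difference to be read. They were Adgre1 (0.0533 FPKM, and listed at 0), Csf1r (0.0337 and 0.0308) and Itgam (0.00926, and listed at 0).

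Resistant cells had much less RNA for 2 receptors of the family, those for LIF and for IL6. Lifr stood at 0.977 FPKM against 7.80 in the wild type, and Il6ra at 0.0271 against 0.900. The shared chain gene Il6st was lower by a smaller amount and Osmr was somewhat higher. The ligand genes Lif and Clcf1, as well as Stat3 and Socs3, differed by less than 2-fold. Il6 and Il11 were at or near 0 in both libraries, too low for a difference to be read. In bulk RNA, fewer cells expressing a gene and less RNA per cell cannot be told apart. Each difference is a log2 ratio of resistant over wild type FPKM after 1 FPKM was added to both, a scale that shrinks the differences of low genes. Genes that reached 1 FPKM in either library are called measured, and there were 12193 of them, including 7 of the 10 members. Of these 7, 1 was at least 2-fold lower in resistant cells (Lifr) and 0 were at least 2-fold higher, beside 8.37% and 7.90% of all measured genes. The median log2 ratio of the 7 was 0.03, and that of all measured genes was 0.02. Osmr entered the 7 through the resistant library alone and Lifr through the wild type library alone. Il6ra, at 0.900 FPKM in the wild type, was just under the filter, as Lif, at 1.09, was just over it.

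**Figure D1:**
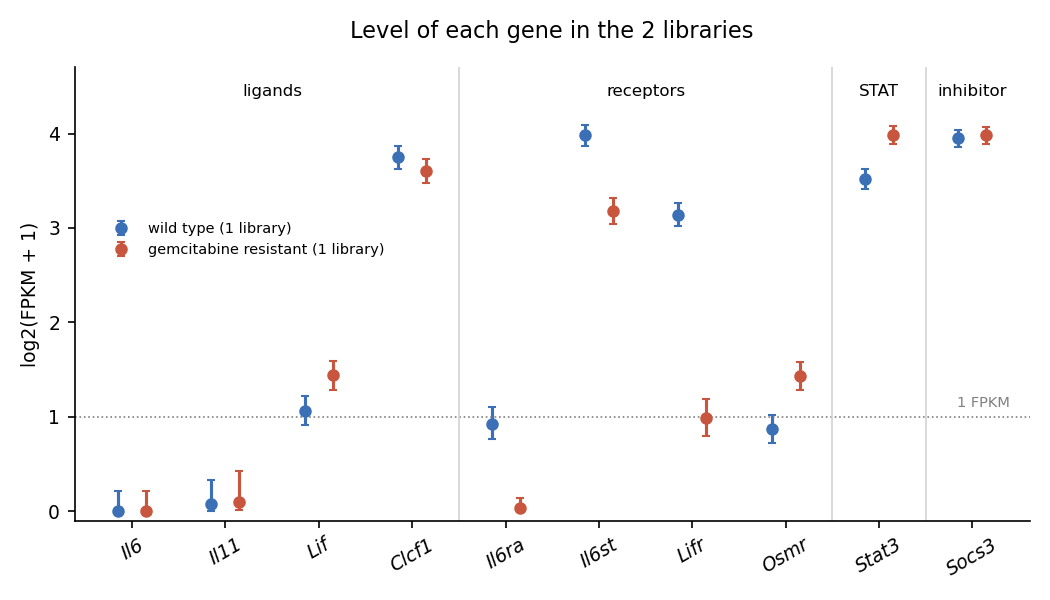
Level of each of the 10 genes as log2(FPKM + 1) in the wild type library (blue) and the gemcitabine resistant library (red), 1 library each. Bars are 95% Poisson intervals for counting error only, and the dotted line is 1 FPKM. Lifr stood at 7.80 FPKM in the wild type and 0.977 in resistant cells, while Socs3 stood at 14.5 and 14.8.

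The LIF receptor gene, Lifr, lies on chromosome 15 of GRCm38 (7090614 to 7197489, plus strand). Its level was 7.80 FPKM in the wild type library (95% interval 7.09 to 8.57) and 0.977 FPKM in the resistant one (0.735 to 1.28). The 2 counting intervals did not overlap, and the wild type value was 7.98 times the resistant one (5.97 to 10.8, conditional exact binomial). On the log2(FPKM + 1) scale the ratio was -2.15, and 2.28% of measured genes were as far apart or farther in either direction. In the authors' deposited table Lifr had a p-value of 0.025 and a q-value of 0.901, and was not called.

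Il6ra encodes the alpha chain that makes a cell able to bind IL6. It lies on chromosome 3 (89864059 to 89913196, minus strand). It stood at 0.900 FPKM in the wild type library (0.703 to 1.14) and at 0.0271 FPKM in the resistant one (0.00328 to 0.0978). On the shorter coding transcript these values correspond to about 69 fragments and 2 fragments, and the wild type value was 33.3 times the resistant one (8.90 to 281). The pseudocount hides most of this, since the log2 ratio on the FPKM + 1 scale was -0.89. The authors' deposited table gives Il6ra a p-value of 0.169. Of the leukocyte markers, Cd68, which makes up most of their summed level, was higher in resistant cells, as were Lyz2 and Ptprc. Adgre1, Csf1r and Itgam were near 0, too low for a difference to be read, and Cd3e and Cd79a were listed at 0 in both. The part of leukocytes in the Il6ra level was not tested.

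Il6st, the gene of the signal-transducing chain gp130, lies on chromosome 13 (112464070 to 112510086, plus strand). Its level was 14.8 FPKM in wild type (13.6 to 16.0) and 8.08 FPKM in resistant cells (7.21 to 9.0). These intervals did not overlap either, but the log2 ratio of -0.80 was within 2-fold, and 25.3% of all measured genes were at least as far apart. Osmr, which encodes the oncostatin M receptor chain, went the other way, from 0.822 FPKM (0.646 to 1.03) to 1.69 FPKM (1.44 to 1.99), a log2 ratio of 0.56. Without a pseudocount the resistant value of Osmr was 2.06 times the wild type one (1.56 to 2.76). For Osmr, 39.8% of measured genes were at least as far apart on the FPKM + 1 scale.

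The balance between the receptor genes was different in the 2 libraries. FPKM is per length, so levels of different genes can be set side by side within a library. Wild type cells had 9.49 times as much Lifr as Osmr, and resistant cells had 1.73 times as much Osmr as Lifr. Il6st exceeded Lifr 1.89-fold in the wild type and 8.27-fold in resistant cells. Its excess over Osmr was 17.97-fold in the wild type and 4.77-fold in resistant cells.

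Osmr (6813577 to 6874969, minus strand) and Lifr are neighbours on chromosome 15, 215644 bases apart with 0 annotated protein-coding genes between them, yet their levels differed in opposite directions. Farther out, the nearest measured protein-coding genes, given by position, were Rictor, a kinase complex gene (5.28 FPKM in the wild type and 6.66 in resistant cells), and Wdr70 (13.3 and 20.2). Beyond Rictor, the adaptor gene Dab2 stood at 2.85 and 0.730 FPKM, a log2 ratio of -1.15. The next one past Dab2, Ptger4, went the other way, at 0.393 and 2.13 FPKM (log2 ratio 1.17). Next to Il6ra on chromosome 3, Ube2q1 (28.6 and 26.7 FPKM) was within 2-fold and the flippase gene Atp8b2 (6.55 and 2.12) was at least 2-fold lower. Past Atp8b2, Hax1 was higher but within 2-fold (63.2 and 108.7 FPKM, log2 ratio 0.77). Of all measured genes, 8.37% were at least 2-fold lower and 7.90% at least 2-fold higher.

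**Figure D2:**
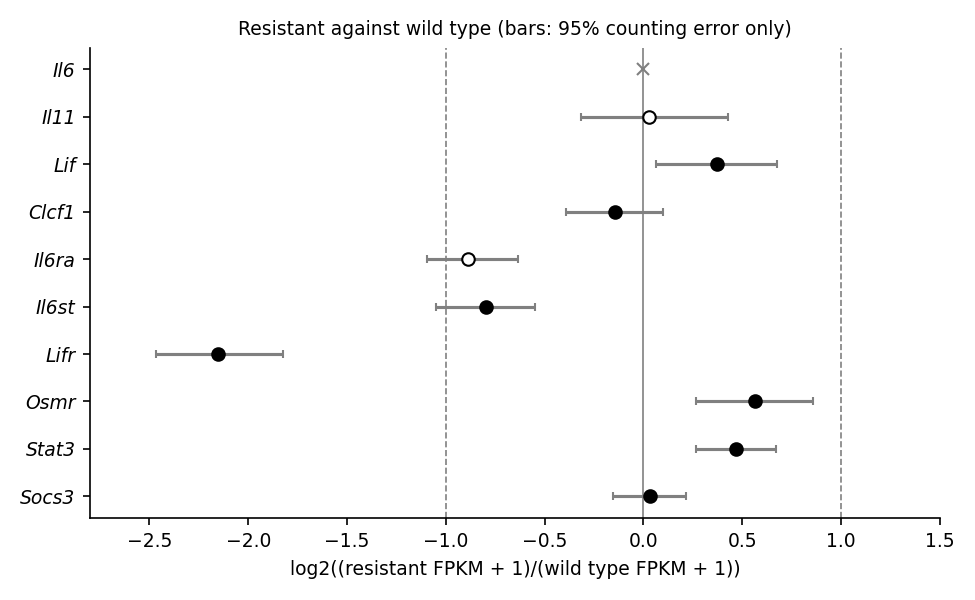
The log2 ratio of resistant over wild type FPKM + 1 for each of the 10 genes. Bars run between the ratios that the ends of both Poisson intervals give and cover counting error only, open circles mark genes under 1 FPKM in both libraries, the cross marks Il6, listed at 0 in both, and dashed lines mark 2-fold. Lifr, at -2.15, is the only one of the 10 past the 2-fold line.

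Among the ligands, Il6 itself (chromosome 5, 30013114 to 30019981, plus strand) was listed at 0 in both libraries. For scale, 1 fragment on its shortest long-enough transcript would have given 0.0425 FPKM for wild type cells and 0.0439 FPKM for resistant cells. Il11, a cytokine that uses its own alpha chain, was near 0, at 0.0504 and 0.0722 FPKM. This is the level of about 1 and 2 fragments on the transcript length used, or 2 and 3 on the longest coding transcript. Its counting interval for the ratio of resistant over wild type ran from 0.108 to 122, so a difference in Il11 was not detectable at this depth.

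Lif, the ligand of the LIF receptor, lies on chromosome 11 (4257557 to 4272514, plus strand). It stood at 1.09 FPKM in the wild type (0.881 to 1.33) and 1.71 FPKM in resistant cells (1.44 to 2.01). The log2 ratio was 0.38, and 57.2% of measured genes were at least as far apart. Lif was thus slightly higher where its receptor gene was much lower: Lifr exceeded Lif 7.17-fold in the wild type, and Lif exceeded Lifr 1.75-fold in the resistant library. The most abundant ligand was Clcf1, a B cell and neurotrophic factor that binds through the CNTF receptor, gp130 and the LIF receptor. Clcf1 (chromosome 19, 4214238 to 4223490, plus strand) stood at 12.4 FPKM (11.4 to 13.6) and 11.1 FPKM (10.1 to 12.2), with overlapping intervals and a log2 ratio of -0.14. Of its 3806 exonic bases, 311 are shared with the same-strand gene AC109138.7 (0.437 and 1.96 FPKM), and the table does not say how shared fragments were split.

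Stat3, the transcription factor of the pathway, lies on chromosome 11 (100885098 to 100939540, minus strand). It stood at 10.5 FPKM in the wild type (9.62 to 11.3) and 14.8 FPKM in resistant cells (13.8 to 15.9), a log2 ratio of 0.47. The intervals did not overlap, but 48.6% of measured genes were at least as far apart, so a difference of this size was common between these libraries. Of Stat3, 72 of the 9527 exonic bases overlap Stat5a on the other strand. Socs3 (chromosome 11, 117966079 to 117970047, minus strand), the STAT3-induced inhibitor of gp130 signalling whose upstream motif is shown above, stood at 14.5 FPKM (13.5 to 15.5) and 14.8 FPKM (13.8 to 15.8). Its log2 ratio was 0.03, and the ratio of resistant over wild type was 1.02 with a counting interval of 0.928 to 1.13. Socs3 exceeded Stat3 1.38-fold in the wild type, and the ratio of Socs3 over Stat3 was 0.997 in resistant cells. In the authors' deposited table, 56 of all 55468 rows were called, and 0 of the 10 genes were among them.

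The order of levels also differed between the libraries. In wild type cells Il6st, Socs3, Clcf1, Stat3 and Lifr led, followed by Lif, Il6ra, Osmr, Il11 and Il6. Resistant cells had the order Stat3, Socs3, Clcf1, Il6st, Lif, Osmr, Lifr, Il11, Il6ra and Il6. Neighbours whose counting intervals overlapped in the wild type were Il6st and Socs3, Socs3 and Clcf1, Lif and Il6ra, Il6ra and Osmr, and Il11 and Il6. The same held in resistant cells for Stat3 and Socs3, Lif and Osmr, Il11 and Il6ra, and Il6ra and Il6. Lifr was at position 5 in the wild type and at position 7, below Osmr, in resistant cells, and Il6ra was at 7 and at 9.

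**Figure D3:**
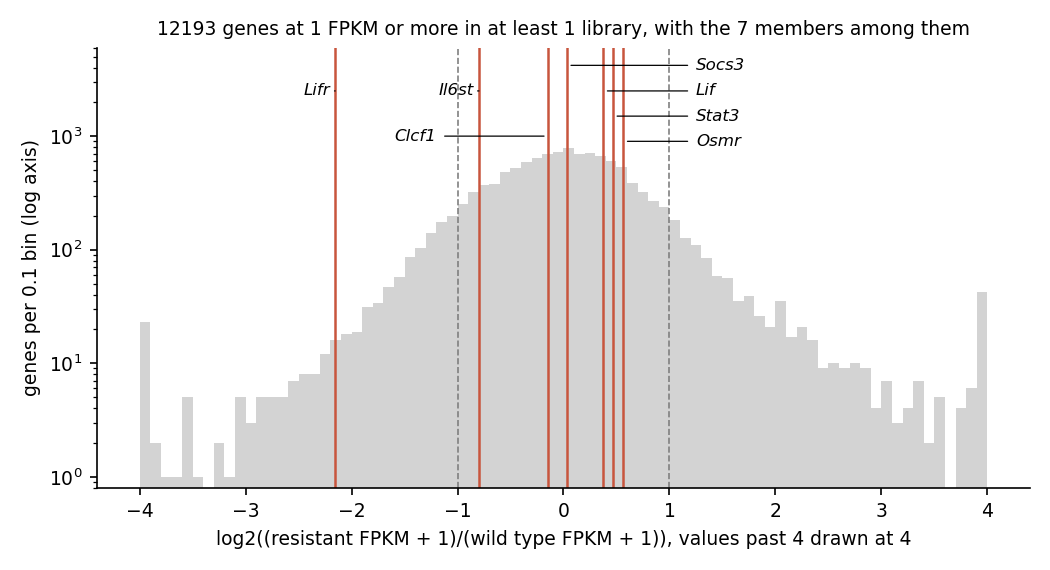
Number of genes per 0.1 of log2 ratio (resistant over wild type, FPKM + 1) on a log axis, over the 12193 measured genes, with red lines for the 7 measured genes described here. Lifr, at -2.15, lies in the lower tail, and the other 6 lie within the dashed 2-fold lines.

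Most other ligand and receptor genes of the family were under 1 FPKM in both libraries. Of 7 other ligand genes given here, 1 was measured, the ciliary neurotrophic factor gene Cntf (1.14 FPKM in the wild type and 0.520 in resistant cells). Its level is uncertain, because 847 of its 1073 exonic bases are shared with Zfp91 (34.1 and 23.8 FPKM). Cardiotrophin, Ctf1, stood at 0.806 and 0.759 FPKM. Its paralog Ctf2 was listed at 0 in the wild type and stood at 0.0541 FPKM in resistant cells. Il27 (0.0486 and 0.0501) and Ebi3 (0.0420, and listed at 0 in resistant cells) were at the level of single fragments, and oncostatin M, Osm, and Il31 were listed at 0 in both.

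Of 4 other receptor genes, 1 was measured and it was higher in resistant cells: Il11ra1, the alpha chain for IL11, at 7.25 FPKM against 2.71, a log2 ratio of 1.15. The raw ratio was 2.68 (2.13 to 3.40). With a pseudocount of 5 in place of 1 its log2 ratio was 0.67, within 2-fold. Il11ra1 has a near-identical copy, Gm13305 (98.6% identity over 2578 bases, listed at 0 and at 0.119 FPKM), so some of its fragments could have been placed elsewhere. In the wild type Il11ra1 exceeded Il6ra 3.01-fold, and in resistant cells 268-fold. The latter rests on about 2 Il6ra fragments on the shorter coding transcript. Cntfr and Il31ra were listed at 0 in both libraries, and Il27ra stood at 0.0166 FPKM and was listed at 0 in resistant cells.

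Of 9 JAK kinase and other STAT genes given here, 8 were measured, and all 8 were within 2-fold on the FPKM + 1 scale. Most measured genes were, as 16.3% of them were at least 2-fold apart. The kinase genes that gp130 uses were close between the libraries: Jak1 at 29.99 and 38.9 FPKM, Jak2 at 24.2 and 22.5 and Tyk2 at 4.45 and 4.79, in wild type and resistant cells. Jak3 stood at 1.39 and 0.882 FPKM, and 404 of its 5352 exonic bases are shared with the same-strand gene Insl3 (3.54 and 0.460 FPKM). Stat2, which acts in interferon responses, came nearest to the 2-fold line, at 1.90 and 4.71 FPKM (log2 ratio 0.98). Its raw ratio was 2.48 (2.09 to 2.94), and with a pseudocount of 0.1 it lay past that line, at 1.27. Stat5a (3.05 and 3.39), Stat5b (6.01 and 4.56) and Stat6 (14.2 and 15.4) were within 2-fold, and Stat4 was listed at 0 in both.

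Inhibitors of the pathway differed in both directions, as did measured genes in general. Of 15 SOCS, PIAS and phosphatase genes 14 were measured, with 2 at least 2-fold higher, 1 lower and 11 within 2-fold. Over the 12193 measured genes the corresponding shares were 7.90% up and 8.37% down. Socs2, which restrains growth hormone and STAT5 signalling, stood at 2.13 FPKM in the wild type and 11.2 in resistant cells (log2 ratio 1.97). Socs5 was lower, at 10.6 and 3.20 FPKM (log2 ratio -1.46). Pias4, a SUMO ligase that acts on STAT proteins, was higher, at 4.60 and 10.6 FPKM (log2 ratio 1.05). With a pseudocount of 5 both Socs5 (-0.93) and Pias4 (0.70) were within 2-fold, and under upper quartile rescaling Pias4 was too (0.97). The sheddase genes Adam10 and Adam17, whose products release receptor ectodomains including that of the IL6 receptor, stood at 48.4 and 49.4 FPKM and at 14.6 and 12.5 FPKM, both within 2-fold.

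Of 24 known STAT3 target genes 18 were measured, 5 of them at least 2-fold higher in resistant cells, 0 at least 2-fold lower and 13 within 2-fold. For comparison, 7.90% of the 12193 measured genes passed the upper 2-fold line and 8.37% the lower one. The cyclin D1 gene Ccnd1 was just inside the lower line, at 260.7 FPKM in the wild type and 134.1 in resistant cells (log2 ratio -0.95), and lay past it, at -1.04, under upper quartile rescaling. The median log2 ratio of the 18 was 0.39, beside 0.02 over all measured genes. This list was chosen with earlier results of these data known, so its count and median are a description only. The 5 were the angiogenic factor gene Vegfa (13.5 FPKM in the wild type and 50.04 in resistant cells, log2 ratio 1.82), the kinase gene Pim1 (12.4 and 37.3), the hypoxia factor gene Hif1a (28.2 and 82.0), the adhesion gene Icam1 (11.95 and 33.0) and the immediate early gene Ier3 (57.7 and 140.9). All 5 are also known to respond to other pathways such as NF-kB or hypoxia, and the part of STAT3 in these levels was not tested. The acute-phase and regenerating genes Lrg1, Reg3b and Reg3g, which STAT3 induces in many epithelia, were listed at 0 in both libraries, and Lcn2 (0.111 and 0.286 FPKM) and Saa3 (listed at 0, and 0.219) were near 0.

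Among 11 genes that regulate Il6, 9 were measured. Of these, 1 was at least 2-fold higher (7.90% of all measured genes), 1 lower (8.37%) and 7 within 2-fold. Il1a, an inducer of IL6 and LIF, stood at 5.96 FPKM in resistant cells against 0.0230 in the wild type, a level of about 1 fragment. Its log2 ratio was 2.77, and it entered the 9 through the resistant library alone. The NF-kB subunit gene Rela was lower, at 13.8 against 40.3 FPKM (log2 ratio -1.48). Of the leukocyte markers given above, Cd68, Lyz2 and Ptprc were higher in resistant cells, and the others were near 0 or listed at 0 in both. The part of leukocytes in the Il1a and Icam1 levels was not tested. Over the 7 lists together, 9 of 53 measured genes (17.0%) were at least 2-fold higher and 2 (3.77%) at least 2-fold lower. Over all measured genes the shares were 7.90% and 8.37%. The lists were chosen with earlier results of these data known, so these shares are a description only. The authors' deposited table called 0 of the 11 list genes past a 2-fold line, and 56 of all 55468 rows.

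**Figure D4:**
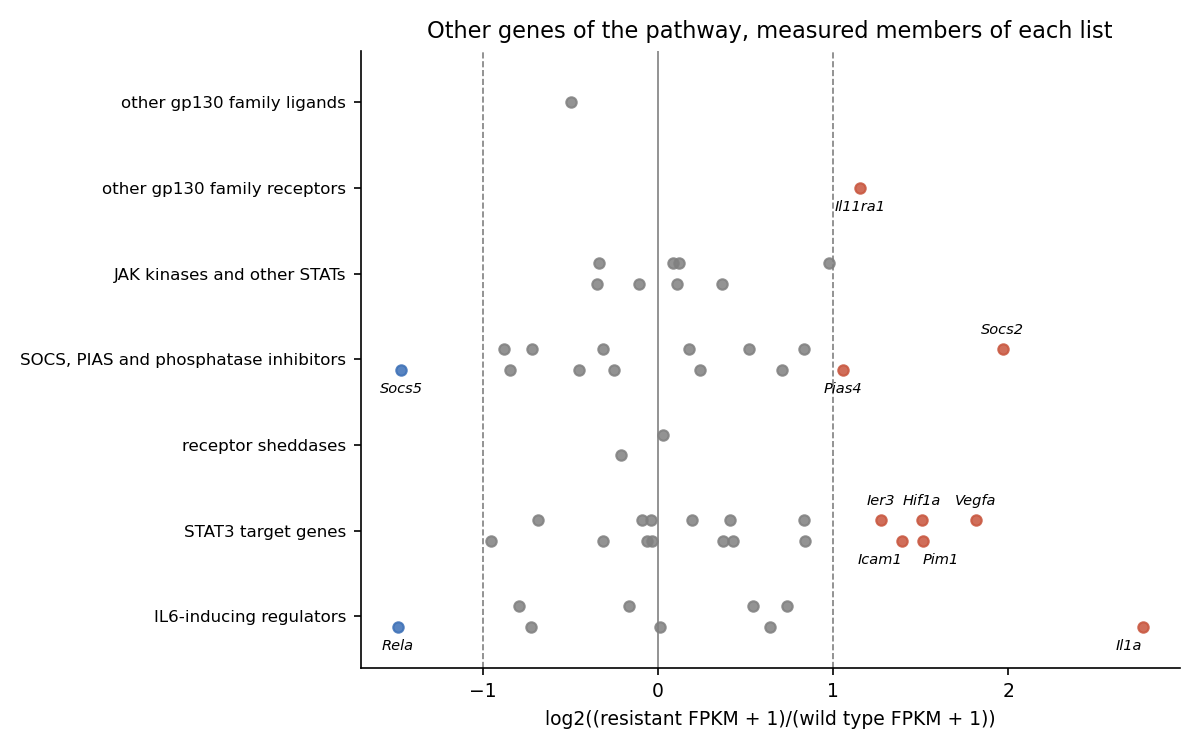
The log2 ratio (resistant over wild type, FPKM + 1) of each measured gene in 7 lists of other pathway genes, 1 point per gene, with genes at least 2-fold higher in red, at least 2-fold lower in blue and dashed lines at 2-fold. The 5 named STAT3 target genes lie between 1.27 and 1.82, and Socs5 and Rela are the only ones past the lower line.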

How the data were processed

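RNA-seq of 1 wild type and 1 gemcitabine resistant KPC2 library was deposited as 1 table with 55468 rows. HISAT2, StringTie and the build GRCm38 appear in the submitters' processing notes, without versions or roles. The header gives no unit, and the deposited values were taken to be FPKM. Beside them, per the file headers, are the authors' log2 fold change, test statistic (a score), p-value and q-value from 1 library per side. Positions, exon overlap and transcript lengths came from GENCODE M21 (GRCm38), where 55141 identifiers were found. Low values of genes with 1 transcript of 1000 to 8000 bases, multiplied by length less 160 bases, gave whole fragments (within 0.1, up to 5.5 fragments) for 100.0% of 581 wild type and 99.4% of 648 resistant values.

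Rows of 1 symbol were summed and 13 rows marked as failed or too deep were left out. A pseudocount of 1 FPKM, a filter of 1 FPKM in at least 1 library and a 2-fold line were used, with no test. Copies at 90% identity over 500 bases were sought with BLAST 2.17.0+ and found elsewhere for 0 of the 10 genes. The members and gene lists were chosen with earlier results of these data known. Named genes are the 10 members, the other ligand, receptor, JAK and STAT genes, and up to 6 genes per list at least 2-fold apart. Some genes that the lists hold are not reported here and enter no list count. Genes named beyond these (neighbours, markers, sheddases, and STAT3 targets at or near 0) were chosen by position, from the marker lists or after their values were seen. Alternatives were other pseudocounts, filters, scalings, row choice and a 4-fold line. The steps were tested on simulated data. The software was scipy 1.17.1, pandas 2.3.3, numpy 2.4.6 and matplotlib 3.10.9 under Python 3.11.15.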

Additional observations from a re-analysis of the deposited data

How the results depend on the processing

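The count of members at least 2-fold lower stayed at 1 (Lifr), and the count higher at 0, under pseudocounts of 0.1 and 5, no filter, a filter of 5 FPKM, median or upper quartile rescaling, the row with the highest mean and a 4-fold line. With a pseudocount of 0.1 and no filter together, chosen after the data had been seen, 2 members were lower, as Il6ra then had a log2 ratio of -2.98. The ratio of Lifr ran from -2.87 (pseudocount 0.1) to -1.10 (pseudocount 5). The median over the members was -0.14 at a filter of 5 FPKM, which leaves 5 of them, and -0.05 under upper quartile rescaling. Socs3, near 0, also had a negative ratio (-0.05) under that rescaling. Over the pathway lists, 11 of 53 measured genes were at least 2-fold apart, beside 16.3% of all measured genes. At the 4-fold line 1 of the 53 was, beside 1.80% of all measured genes higher and 1.05% lower. With a pseudocount of 0.1 and no filter, 17 of 72 list genes were at least 2-fold apart. Under that setting 4.74% of all 55337 gene symbols were higher and 5.78% lower, and these include genes at 0. A pseudocount of 0.1 put Stat2 and Cish (1.17) past the upper line and Ptpn6 (-1.01) and Cntf (-1.01) past the lower one. Of all measured genes, 12.7% were at least 2-fold lower and 10.8% higher at a pseudocount of 0.1, and 2.44% and 3.51% at 5. Upper quartile rescaling multiplied the resistant values by 0.94. No paired analysis was possible because each group has 1 library, and no library could be left out. Counting error limits Il11 and the resistant value of Il6ra, which rest on about 1 to 2 fragments at the transcript lengths used.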
